A study of Mus musculus with 2 samples.

Results

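Cycling metastatic carcinoma cells were the cells of a metastasis-bearing mouse lung that carried both a carcinoma signature and a proliferation signature, and 790 such cells were found. They were chosen from single-cell RNA counts by a rule on summed levels. A cell entered when Cdkn2a, Sox9, Twist1, Hmga2 and Fosl1 together reached 6 unique molecular identifiers (UMIs, each a single captured RNA molecule) per 10000 UMIs of the cell, and when Birc5, Ube2c, Top2a, Mki67, Ccnb1 and Cdc20 together reached 5 on the same scale. The 3 C1q genes of macrophages had to sum to less than 10, and Cldn5 and Cdh5 of endothelium to less than 3. Cells had 1000 to 7000 detected genes and at most 10% mitochondrial UMIs. The 790 cells made up 26.0% of the 3033 cells kept from that lung (95% exact binomial interval 24.5 to 27.6%), and 14.3% of the 5506 cells kept in the whole series. All intervals given here cover counting error only.

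The series holds 2 libraries made by droplet sequencing of dissociated whole lung, each from 1 female FVB/NJ mouse. Both mice were injected at 10 weeks of age with Met-1 cells by tail vein, a mammary carcinoma line derived from MMTV-PyMT tumours, in which the mammary tumour virus promoter drives the polyomavirus middle T oncogene. The low burden lung was taken at week 1 and the high burden lung at week 3 after injection, and the labels give both the same batch. Injection into the vein seeds the lung directly, without a primary tumour. No cell of the low burden library passed the rule, 0 of 2473, so every cycling carcinoma cell came from 1 mouse. By a floor of 3 counts, and not by an exact interval, this allows a share of up to 0.121%. With 1 mouse there is no replicate and no test across mice, and all differences below are differences between groups of cells in 1 library. The libraries held 52723173 and 14041471 UMIs for high and low burden, and 11 barcodes occurred in both, 4 of them among the cycling carcinoma cells.

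A dividing cell passes from G1, where D- and E-type cyclins release E2F transcription factors from the retinoblastoma protein, into S phase, where the MCM helicase and its loaders open replication origins and PCNA-bound polymerases copy the DNA. In G2 and mitosis, cyclin A and cyclin B with CDK1, the Polo-like and Aurora kinases, and the kinetochore and spindle proteins separate the chromosomes, after which the anaphase-promoting complex degrades the mitotic cyclins. Transcripts of the replication apparatus peak before those of the mitotic apparatus. Lung metastases grow by such divisions of the seeded cells.

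The 7 markers of these cells, Cdkn2a, Sox9, Twist1, Hmga2, Fosl1, Birc5 and Ube2c, all belong to the sums of the rule, so their presence was fixed by it and does not check the label. All 790 cells held at least 1 UMI of Cdkn2a, whose locus encodes the cell cycle inhibitors p16Ink4a and p19Arf, which gene-level counts do not separate. All 5 carcinoma genes were present in 557 of the 790 cells, and 4 of them in a further 169. Because these cells were deep, each cell was also thinned to 5000 UMIs, which left out no cell. After thinning, Cdkn2a was detected in 91.8% of cycling carcinoma cells (26040.5 median UMIs before thinning) and in 23.0% of 87 lymphocyte-gated cells (6877 median UMIs). The latter served as a rough measure of free RNA. Sox9, a progenitor transcription factor, was detected in 68.1% and 19.5%. Twist1, a driver of mesenchymal change, was found in 52.4% and 6.90%. Hmga2 and Fosl1 (49.4% and 42.5% against 14.9% and 6.90%) and the cycle markers Birc5 and Ube2c (86.5% and 69.1% against 37.9% and 33.3%) were also found more often. Of the lymphocyte-gated cells, 6 passed the carcinoma sum themselves and 31 the cycle sum. Lung epithelial markers summed to 12854 CPM in them, against 2134 CPM in cycling carcinoma cells. The lymphocyte-gated cells therefore give no clean level of free RNA, least of all for the cycle markers.

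Of genes that the rule did not use, Epcam and, at equal depth, PYMT did not mark these cells, while Ccnd1 was detected more often in them. PYMT, the tumour-initiating transgene, was detected after thinning in 26.6% of cycling carcinoma cells (23.5 to 29.8%) and in 29.4% of non-cycling carcinoma cells. In lymphocyte-gated cells it was detected in 29.9% (20.5 to 40.6%), so after thinning it did not separate the carcinoma cells from these. Without thinning it was found in 78.6% of cycling carcinoma and 42.5% of lymphocyte-gated cells, at unlike depths. The study marked metastatic cells by PYMT together with Ccnd1, cyclin D1. After thinning Ccnd1 was detected in 93.4% of cycling carcinoma, 91.4% of non-cycling carcinoma and 32.2% of lymphocyte-gated cells. Epcam, an epithelial adhesion molecule, stood at 1.95 counts per 1e+06 UMIs (CPM), below its 62.0 CPM in lymphocyte-gated cells, and was found in 4.94% of cycling carcinoma cells. Krt18, a simple-epithelium keratin, was present at 62.4 CPM in 64.3% of them, and at 23.1 CPM in lymphocyte-gated cells. Of 13 epithelial identity genes, 4 passed the filter on low values, which asked for 50 UMIs over both groups compared and detection in 10% of the cells of either. The RNA that silences 1 X chromosome in female cells, Xist, was low in both carcinoma groups (29.9 CPM in cycling, 36.1 CPM in non-cycling cells) and stood at 954 CPM in the other cycling cells of the lung.

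**Figure D1:**
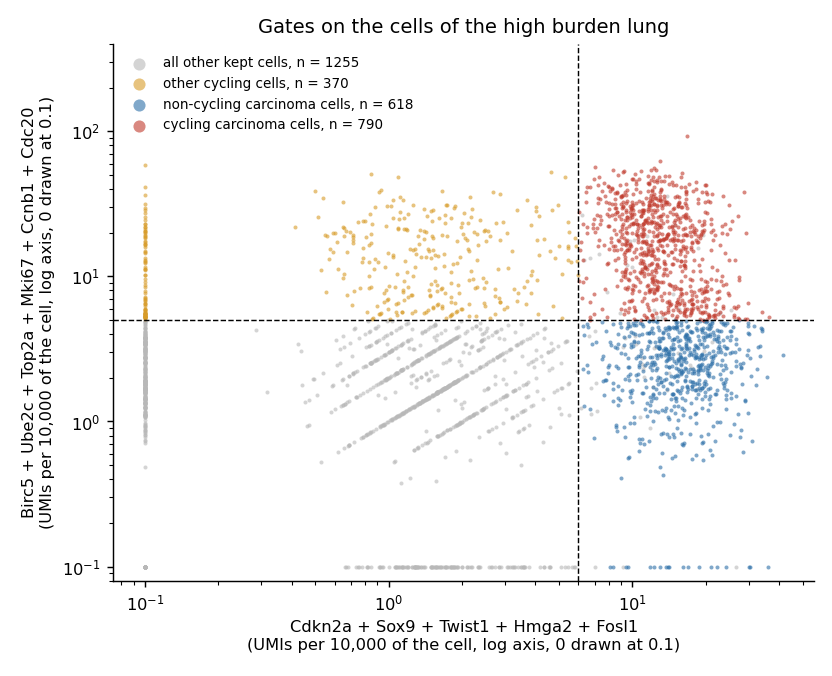
Each point is 1 kept cell of the high burden lung, placed by the sum of the 5 carcinoma genes (x) and of the 6 cycle genes (y), both in UMIs per 10000 UMIs of the cell on log axes, with the limits of the rule drawn as lines. The 790 cycling carcinoma cells lie at or above 6 and 5, and their cycle sums run without a gap into those of the 618 non-cycling carcinoma cells.

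The rule set a boundary in a continuous distribution of the cycle sum. Among 1408 carcinoma cells past the other limits, 790 were cycling (56.1%, 53.5 to 58.7%) and 618 were not, a share fixed by the threshold. The cycle sum of the cycling cells had a median of 17.6 and ran from 5.02 to 92.4, and 567 cells reached 10 and 333 reached 20. Just inside the threshold lay 72 cells with sums of 5 to 6, and just outside lay 104 cells with sums of 4 to 5, the nearest at 4.997. At the carcinoma limit the distribution was thinner, with 25 cycling cells between 6 and 7 and 10 between 5 and 6. A further 24 cells passed both sums but not the C1q limit (13 cells) or the endothelial limit (11 cells), with a median of 26621 UMIs.

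Cycling carcinoma cells were deeper than the groups compared with them. Their median was 26040.5 UMIs per cell (25302 to 26924; range 5241 to 72061), against 17434 (16935 to 17916) in non-cycling carcinoma cells and 11781.5 in 370 other cycling cells. The ratio of the 2 carcinoma medians was 1.49, and 82.7% of cycling carcinoma cells exceeded the non-cycling median. They held 4917 detected genes per cell at the median against 3880.5, but after thinning to 5000 UMIs the medians were 1910 and 1839 genes. Mitochondrial UMIs took 3.14% and 4.00%. With 26.0% of the kept cells, cycling carcinoma cells held 41.9% of the kept UMIs of the lung.

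**Figure D2:**
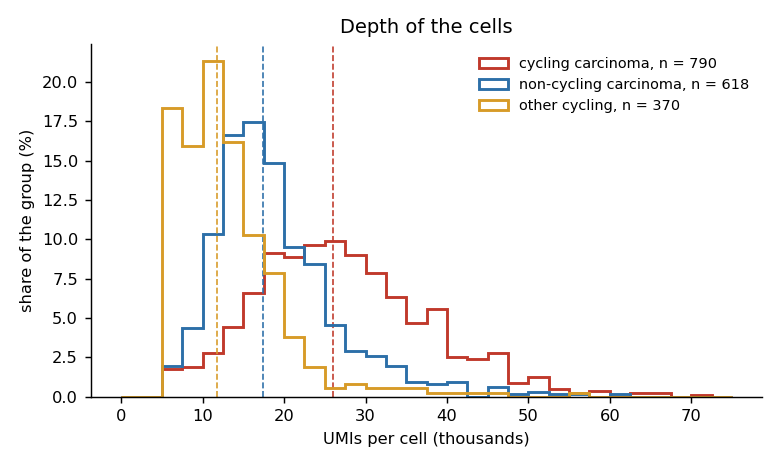
Distribution of UMIs per cell (x, in units of 1000) as a share of each group (y, percent) for cycling carcinoma, non-cycling carcinoma and other cycling cells of the high burden lung. The cycling carcinoma cells centre on 26040.5 UMIs, to the right of 17434 and 11781.5, with wide overlap between the groups.

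The 6 cycle genes of the rule mark these cells as cycling, so the promoters of 4 of them are shown, with the motifs known from cell cycle promoters. The CHR element, here TTTGAA, is bound by the DREAM and MuvB complexes, CCAAT by NF-Y, and the E2F site was searched as TTTCCCGC or TTTGGCGC, all on both strands in the 250 bases before the RefSeq start (GRCm38.p6). Capitals mark matches, read 5′ to 3′ on the strand of the gene, so that ATTGG and TTCAAA are CCAAT and CHR on the opposite strand. Top2a (chr11:99024190-99024439, minus strand), the topoisomerase that untangles replicated DNA, held 2 CHR and 6 CCAAT matches. Mki67 (chr7:135716380-135716629, minus strand), which coats mitotic chromosomes, held 2 CHR and 3 CCAAT matches, while Cdc20 (chr4:118437344-118437593, minus strand), an activator of the anaphase-promoting complex, held 1 CHR and 2 CCAAT matches just before its start. Birc5 (chr11:117848987-117849236, plus strand), the survivin gene, held none in this window.
Top2a: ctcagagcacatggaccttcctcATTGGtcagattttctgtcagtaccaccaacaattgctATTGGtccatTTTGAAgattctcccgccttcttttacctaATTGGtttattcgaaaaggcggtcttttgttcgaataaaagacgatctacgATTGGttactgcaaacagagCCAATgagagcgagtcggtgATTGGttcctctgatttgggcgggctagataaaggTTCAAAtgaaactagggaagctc
Mki67: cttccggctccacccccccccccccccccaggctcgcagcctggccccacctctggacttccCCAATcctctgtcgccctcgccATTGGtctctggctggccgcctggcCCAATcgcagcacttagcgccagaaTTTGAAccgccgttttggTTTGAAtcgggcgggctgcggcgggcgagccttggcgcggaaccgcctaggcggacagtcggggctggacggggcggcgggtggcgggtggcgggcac
Cdc20: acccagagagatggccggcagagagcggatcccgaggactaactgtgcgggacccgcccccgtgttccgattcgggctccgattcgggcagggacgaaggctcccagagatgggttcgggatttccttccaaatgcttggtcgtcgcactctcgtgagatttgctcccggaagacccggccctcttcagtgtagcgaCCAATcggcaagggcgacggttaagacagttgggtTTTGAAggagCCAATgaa
Birc5: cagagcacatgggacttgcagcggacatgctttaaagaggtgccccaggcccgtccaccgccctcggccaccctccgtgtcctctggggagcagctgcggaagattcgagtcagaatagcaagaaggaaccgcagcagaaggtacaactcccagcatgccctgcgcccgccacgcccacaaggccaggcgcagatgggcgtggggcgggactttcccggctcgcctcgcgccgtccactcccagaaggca

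The same motifs were counted over all windows of this length. A CHR match occurred in 16.0% of 32851 windows, CCAAT in 33.8%, the E2F site in 1.30%, and CHR with CCAAT in 5.55%. Among the 7482 genes with a window that passed the filter for the comparison of cycling with non-cycling carcinoma cells, CHR and CCAAT occurred together in 4.54%. Singly, CHR occurred in 12.1% of these genes, CCAAT in 40.5% and the E2F site in 3.30%. Among the 122 with a window of 159 genes that were 4-fold or more higher in cycling cells they occurred together in 23.8%, with CHR in 31.1% and CCAAT in 68.0%. These genes include the 6 cycle genes of the rule, 4 of which held both motifs. The rule also used mitotic transcripts to form the groups, so these shares are not independent of it. In the spindle and cytokinesis list CHR was present in 11 of 26 windows (42.3%), but in 4 of 23 of the centromere and kinetochore list (17.4%) and 3 of 13 of the mitotic kinases and cyclins (23.1%). The E2F site was present in 5 of 14 windows of origin licensing genes (35.7%), in 1 of 25 of the replication fork and in 0 of 11 of nucleotide supply. A match is a run of letters and was not tested for binding.

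All 6 cycle genes of the rule were broadly present in the cycling carcinoma cells, and these levels are a description because they chose the cells. Birc5 stood at 841 CPM against 73.3 CPM in non-cycling carcinoma cells, a log2 ratio of 3.52 (3.42 to 3.62), and supplied the most UMIs of any gene in the sum. Ube2c, the ubiquitin-conjugating enzyme of the anaphase-promoting complex, stood at 499.5 and 54.7 CPM (log2 3.19), and Top2a at 470.3 and 101 CPM (log2 2.21). The remaining 3 genes were lower in level, with Ccnb1, the cyclin B of mitotic entry, at 96.8 CPM, Cdc20 at 161 CPM and Mki67 at 70.6 CPM. After thinning, Mki67 was detected in 27.1% of cycling carcinoma cells against 3.88% of non-cycling ones, while Birc5 was detected in 86.5% and 27.8%. All 6 genes were found together in 350 of 790 cycling cells and in 3 of 618 non-cycling cells, without thinning.

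The 5 carcinoma genes divided into those lower in CPM in cycling cells and those not. Their sum chose both groups, so these levels are a description. Cdkn2a stood at 587 CPM in cycling and 844 CPM in non-cycling carcinoma cells (log2 −0.52, −0.56 to −0.48), yet both groups held 16.0 UMIs per cell. Sox9 behaved alike, at 264 and 383 CPM with 7.20 and 7.27 UMIs per cell. Twist1 (172 and 198 CPM) and Hmga2, a chromatin protein of embryonic tissue and tumours (170 and 155 CPM, log2 0.14), lay closer together. Fosl1, an AP-1 subunit linked to invasion, was the 1 gene of the 5 past 2-fold, at 136 CPM in cycling and 66.0 CPM in non-cycling cells (log2 1.04, 0.93 to 1.16), with 3.71 and 1.25 UMIs per cell. Over the alternative settings its log2 ratio ran from 0.88 to 1.07, on both sides of 2-fold. Its share of cells with a UMI after thinning was 42.5% (39.1 to 46.1%) against 24.9% (21.6 to 28.5%), and 6.90% in lymphocyte-gated cells.

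Across the transcriptome, 9699 genes passed the filter in the comparison of cycling with non-cycling carcinoma cells. Of these, 422 were 2-fold or more higher (4.35%) and 194 were 2-fold or more lower (2%) in CPM of the summed UMIs, with a median log2 ratio of 0.02 over all genes. The 10 highest outside the rule were Hmmr, Cenpf, Neil3, Bub1, Nusap1, Hist1h1b, Kif14, Aspm, Aurkb and Cenpe. Hmmr, a spindle-associated hyaluronan receptor, stood at 61.5 CPM against 2.64 CPM (log2 4.54, 4.03 to 5.10), and its log2 ratio was 3.36 when each cell was thinned to 5000 UMIs. Neil3, a repair glycosylase, rested on 94 UMIs against 3 (log2 4.09, 2.50 to 6.39). The rest, Hist1h1b apart, were genes of mitosis, and as the rule used transcripts of the same phase, this is the contrast by which the cells were chosen. Genes such as Hmmr, Neil3, Hist1h1b and Aurkb passed the detection limit only through the cycling cells. The same holds for Plk1 (in 8.09% of non-cycling cells), Fbxo5 and Ccne2, which are named below. The place of such genes among the higher ones is therefore not independent of the filter. With each cell thinned to 5000 UMIs, 207 genes were higher and 58 lower, of 5417 past the filter.

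Genes of mitosis gave the widest ratios of any list. Of 19 mitotic kinases and cyclins, 18 were 2-fold or more higher (median log2 2.85): Plk1, the Polo-like kinase, stood at 52.5 against 4.26 CPM, Ccna2 (cyclin A) at 152 against 12.9 CPM, and Aurkb, kinase of the chromosomal passenger complex, at 54.7 against 4.09 CPM. Of 29 centromere and kinetochore genes past the filter (30 listed), 28 were 2-fold or more higher (median 2.44), among them Cenpf at 159 against 8.78 CPM and Cenpa, the centromeric histone, at 282 against 35.6 CPM. Of 28 spindle and cytokinesis genes past the filter (29 listed), all 28 were, with a median of 2.92. Tuba1b, the most abundant of them and a tubulin used throughout the cycle, stood at 1119.5 against 271 CPM (log2 2.05). The 3 lists summed to 5738 CPM in cycling and 1169 CPM in non-cycling carcinoma cells, a log2 ratio of 2.30 (2.27 to 2.32).

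Genes of DNA replication proper gave smaller ratios. The rule used transcripts of G2 and mitosis, so S phase cells with few of them can count as non-cycling. The gap between replication and mitosis genes is therefore not independent of the rule. Of 19 origin licensing and firing genes, 17 were 2-fold or more higher with a median log2 of 1.30, and Mcm5, a helicase subunit, stood at 68.6 against 22.3 CPM. Of 30 replication fork genes 20 were, with a median of 1.31. Pcna, the sliding clamp, stood at 122 against 54.2 CPM (log2 1.17), whereas 2810417H13Rik, a PCNA-associated factor, stood at 195 against 25.1 CPM (log2 2.96). Both lists summed to 2279.6 and 968 CPM (log2 1.24, 1.21 to 1.27). Among 12 nucleotide supply genes 8 were 2-fold or more higher, led by Tk1 (thymidine kinase, 166 against 18.8 CPM) and Rrm2 (ribonucleotide reductase, 154 against 28.1 CPM). Homologous recombination, which repairs breaks in copied DNA, stood apart with a median of 2.21, and 10 of its 11 genes past the filter (14 listed) were 2-fold or more higher.

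Chromosome structure lists differed among themselves. In the condensin and cohesin list 10 of 15 genes were 2-fold or more higher (median log2 1.64), with the condensin subunit Smc4 at 336 against 108 CPM. Among 14 chromatin proteins 8 were (median 1.22), and H2afz, a histone variant made throughout the cycle, was by far the most abundant at 3370.4 against 1398 CPM (log2 1.27). Hmgb2, a chromatin protein of dividing cells, stood at 601 against 101 CPM. Only 15 of 69 replication histone genes passed the filter, and 8 of these were 2-fold or more higher and 1 lower. Hist1h1b, a linker histone, stood at 10.3 against 0.68 CPM (log2 3.92, and 2.40 with each cell thinned to 5000 UMIs). Of 14 anaphase control genes 8 were 2-fold or more higher (median 1.24), with Fbxo5, an inhibitor of the anaphase-promoting complex, at 47.5 against 4.01 CPM.

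**Figure D3:**
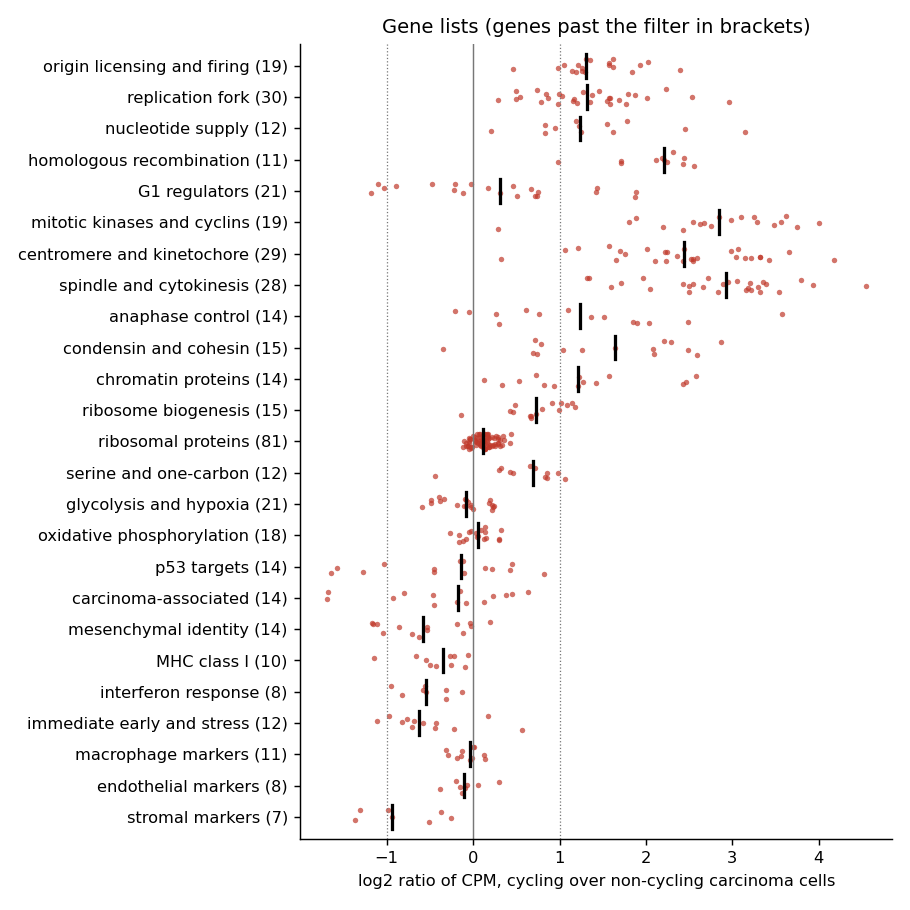
Log2 ratio of CPM in cycling over non-cycling carcinoma cells (x) for every gene past the filter in each list (points), with list medians marked. Mitotic lists centre between 2.44 and 2.92, replication lists near 1.30, while ribosomal proteins, glycolysis and oxidative phosphorylation centre near 0. The rule used genes of G2 and mitosis, so the order of the mitotic and replication lists is not independent of it.

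Regulators of G1 showed no common direction. Of 21 past the filter (23 listed), 4 were 2-fold or more higher and 3 lower, with a median log2 of 0.31. Ccnd1, cyclin D1, was nearly level at 758 and 768 CPM (log2 −0.02, −0.06 to 0.02), and Cdk4, its kinase partner, stood at 519 and 419.5 CPM. Ccne2, a cyclin E, was higher (13.9 against 3.75 CPM), as was E2f8, a repressive E2F (32.5 against 8.87 CPM). Rb1, the retinoblastoma gene, was lower at 8.44 against 18.1 CPM, and Ccnd2, cyclin D2, at 31.5 against 64.1 CPM. Cdkn1a, the p21 inhibitor and a p53 target, stood at 76.2 and 82.3 CPM. Among 14 p53 targets past the filter none was 2-fold higher and 4 were 2-fold lower, Btg2, an antiproliferative gene, the most at 105 against 327 CPM.

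The position of the cells within the cycle was described by 41 S phase and 47 G2/M scoring genes, none of them in the rule. By UMIs of these genes, 97 of the 790 cells leaned to S phase (12.3%, 10.1 to 14.8%), and 109 had a G2/M share between 45 and 55%. The genes of the rule peak in G2 and mitosis, so this share describes the chosen cells only. It also has no baseline, as even non-cycling carcinoma cells held more UMIs of the G2/M genes (median 11.3 per 10000) than of the S phase genes (median 5.91). The share was 6.70% among the 567 cells with a cycle sum of 10. When ordered by G2/M share and divided into 4 groups of 197 or 198 cells, the median share went from 50% to 65.9%, 77.1% and 85.9%. The median UMIs went alongside from 24568 to 25048.5, 27073 and 28126, and the cycle sum from 9.63 to 14.5, 22.1 and 32.4.

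Named cyclins and kinases outside the scoring genes also differed along this order. Between the outer groups, 158 of 9382 genes were 2-fold or more higher in the G2/M-most (1.68%) and 133 were lower (1.42%). Ccne1, cyclin E1 of the G1 to S transition, went from 36.9 to 7.35 CPM, and E2f1, the activating E2F, from 70.7 to 16.7 CPM. Plk1 went the other way, from 16.5 to 97.9 CPM, as did Ccna2 from 86.7 to 249 CPM and Sapcd2, a mitotic spindle orientation gene, from 5.18 to 59.5 CPM. Of 28 spindle genes 25 were 2-fold or more higher in the G2/M-most group, and of 19 origin licensing genes 15 were lower and 1 higher, lists that share genes with the score. Hist1h1b was highest in group 2, at 16.2 CPM against 12.2, 8.36 and 5.47 CPM in the others.

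The carcinoma genes hardly moved along this order. None of the 5 was 2-fold different between the outer groups, and Fosl1 stood at 134 CPM in the S-most and 130.2 CPM in the G2/M-most. Ccnd1 stood at 757 and 725 CPM, Spp1 at 4495 and 4561 CPM, and the 81 ribosomal protein genes past the filter had a median log2 ratio of −0.01. Csf3, the neutrophil growth factor G-CSF, went from 30.5 to 4.44 CPM, but 10 cells held 58.7% of its UMIs in cycling carcinoma cells.

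**Figure D4:**
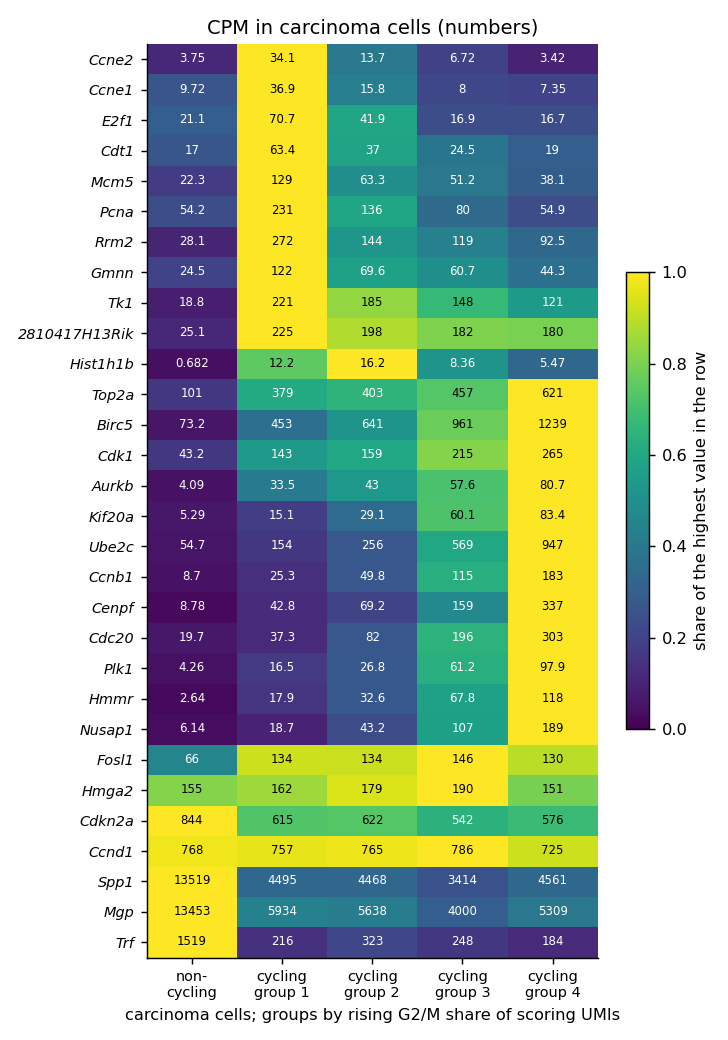
CPM (numbers in the cells of the grid) of named genes in non-cycling carcinoma cells and in the 4 groups of the cycling carcinoma cells by rising G2/M share, coloured by share of the highest value of the gene. Ccne1 and E2f1 are highest in the S-most group (36.9 and 70.7 CPM), and Plk1 in the G2/M-most (97.9 CPM).

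Genes lower in cycling carcinoma cells included several of secreted and iron-handling proteins, named for their levels and not tested as a group. The abundant nuclear RNA Malat1 was lower as well, at 11753 against 20558 CPM (log2 −0.81). Spp1, osteopontin, stood at 4230.2 CPM in cycling and 13519 CPM in non-cycling carcinoma cells (log2 −1.68, −1.69 to −1.66), with 115 and 257 UMIs per cell. Its per-cell median was 25.2 per 10000 UMIs in cycling cells (quartiles 14.7 to 53.01) and 81.4 in non-cycling cells (34.9 to 167), so that the groups overlapped. Mgp, matrix Gla protein, stood at 5199 and 13453 CPM and also headed the stromal marker list, which summed to 5670.5 and 14096 CPM. Cp, the copper oxidase ceruloplasmin, stood at 179 and 577 CPM, and Fth1, the ferritin heavy chain, at 8315 and 15876 CPM. Lcn2, the siderophore-binding lipocalin, stood at 1193 and 2269.6 CPM with 32.6 and 43.1 UMIs per cell.

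Trf, transferrin, had the second lowest ratio of all, at 241 against 1519 CPM (log2 −2.66, −2.70 to −2.61). With each cell thinned to 5000 UMIs the ratio was −1.85. In lymphocyte-gated cells, with a median of 6877 UMIs, Trf stood at 426 CPM, above the cycling carcinoma cells. Per cell, Trf held 3.39 UMIs in lymphocyte-gated, 3.77 in macrophage-gated, 6.58 in cycling and 28.8 in non-cycling carcinoma cells. Spp1 held 26.4 UMIs per lymphocyte-gated and 17.9 per macrophage-gated cell, and Mgp 25.9 and 11.7. In cycling carcinoma cells Spp1 held 115 and Mgp 142. The part of free RNA in the ratios was not tested. The lowest ratio was that of 1500015O10Rik, a secreted peptide precursor (25.2 against 193 CPM), of which 10 cells held 53.9% of the UMIs in cycling cells. Eln (elastin) and Wfdc21 were lower as well, but 10 non-cycling cells held 76.8% and 77.5% of their UMIs. The other 6 of the 10 lowest were Chadl, Lbp, Aox1, Gfra1, Pik3ip1 and Thrsp, each at 31.0 CPM or less in both groups.

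All 1408 carcinoma cells were also ranked by cycle sum and divided into 5 groups of 281 or 282 cells, a description that uses the same sum as the rule. Spp1 went from 15459.5 to 12466, 7415, 3066 and 3785 CPM, and Trf from 2038 to 1142, 605, 163 and 152 CPM. Lcn2 was level over the lower 3 groups, at 2269, 2263 and 2232 CPM, and then stood at 879.6 and 896 CPM. Fosl1 went up, from 59.8 to 65.4, 107, 145 and 143 CPM, and Pcna peaked in group 4 at 169.7 CPM before 79.1 CPM in group 5. Depth went with these values, with median UMIs of 16745.5, 17978.5, 19451.5, 27237 and 30675. In 270 cycling and 311 non-cycling cells of 15000 to 25000 UMIs, a limit chosen after the data were seen, the log2 ratio was −1.13 for Spp1, −1.93 for Trf, −0.60 for Lcn2 and 0.93 for Fosl1, and 92 genes were 2-fold or more lower in place of 194.

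**Figure D5:**
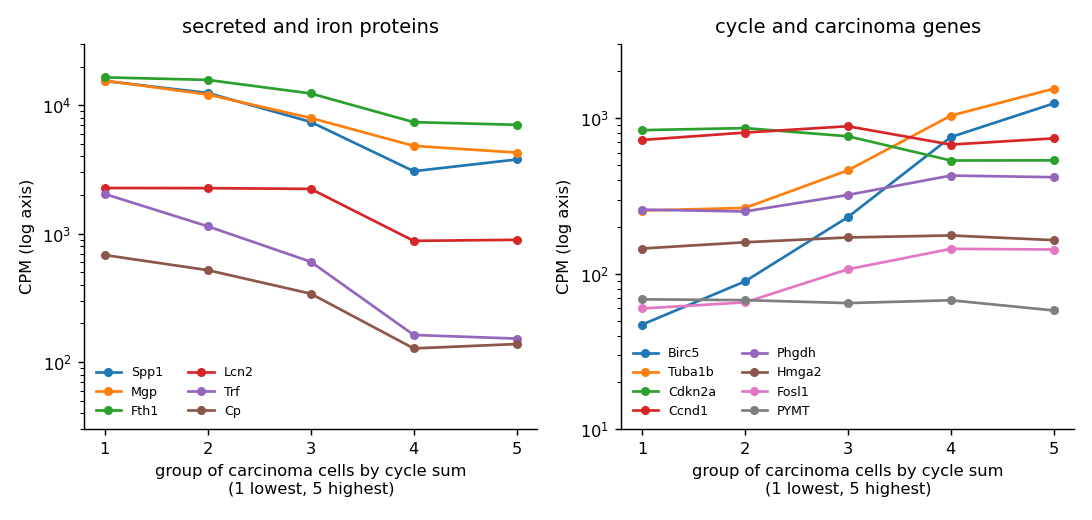
CPM (y, log axis) of named genes in 5 groups of the 1408 carcinoma cells by cycle sum (x, group 1 lowest). Spp1 and Trf descend from 15459.5 and 2038 CPM in group 1 to 3785 and 152 CPM in group 5, and Fosl1 ascends from 59.8 to 143 CPM.

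Antigen presentation and interferon genes were lower in CPM, mostly by less than 2-fold. Of 10 MHC class I genes past the filter (11 listed), 1 was 2-fold lower and the median log2 was −0.35. B2m, the invariant light chain, stood at 1376 and 2009 CPM, yet at 37.5 and 38.1 UMIs per cell. H2-T23, a nonclassical heavy chain, was the 1 gene past 2-fold, at 41.8 against 92.3 CPM. Of 8 interferon response genes past the filter (12 listed) none was past 2-fold in either direction, with a median of −0.55, and Isg15, a ubiquitin-like interferon product, stood at 169.6 and 248 CPM. Of 12 immediate early and stress genes 1 was 2-fold lower, Dusp1, a phosphatase of MAP kinases, at 425 against 917 CPM.

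Lists of energy metabolism and ribosomal proteins were near level, and those of serine synthesis and ribosome biogenesis were higher. No gene of 21 in glycolysis and hypoxia, of 18 in oxidative phosphorylation or of 81 ribosomal proteins past the filter (84 listed) was 2-fold different, with median log2 ratios of −0.08, 0.05 and 0.12. The 12 serine and one-carbon genes had a median of 0.69, with 1 past 2-fold, Shmt1, a serine hydroxymethyltransferase, at 23.0 against 11.0 CPM. Phgdh, the first enzyme of serine synthesis, stood at 403 and 255 CPM (log2 0.66, 0.60 to 0.72). In 15 ribosome biogenesis genes the median was 0.72 and 4 were past 2-fold. S100a6, a calcium-binding protein and the transcript with the most UMIs in these cells, was level at 16239 and 16112 CPM.

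Markers of other cell types stood close in both carcinoma groups, stromal ones excepted, and for macrophage and endothelial markers the limits of the rule on C1q, Cldn5 and Cdh5 held both groups low. Macrophage markers summed to 1585 CPM in cycling and 1645 CPM in non-cycling carcinoma cells, against 28180.2 CPM in other cycling cells, and none of 11 past the filter was past 2-fold. None of 6 lymphocyte and 8 endothelial markers past the filter was either, and 1 of 7 lung epithelial markers was 2-fold lower. The C1q sum had a median of 2.57 per 10000 UMIs in cycling and 2.55 in non-cycling carcinoma cells, and 10 cycling cells held no C1q UMI. The stromal list had 2 of 7 genes 2-fold lower, with Mgp supplying most of its sum. Of 14 mesenchymal identity genes past the filter (16 listed) 4 were 2-fold lower, among them Fn1, fibronectin, at 299 against 672 CPM. Of 14 carcinoma-associated genes past the filter (18 listed) 2 were 2-fold lower, Spp1 and Cp.

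Cycling carcinoma cells were next compared with the other dividing cells of the same lung. These 370 cells passed the cycle sum but not the carcinoma sum. By C1q sum 251 of them were macrophage-gated. Mitosis genes summed to 5738 CPM in cycling carcinoma and 6355 CPM in other cycling cells, and their median log2 ratio was 0.03, where all 10064 genes past the filter had a median of 0.16. Replication genes had a median of 0.05. Of single genes, Birc5 was higher in carcinoma cells (841 against 442 CPM, log2 0.93) and Mki67 lower (70.6 against 144 CPM, log2 −1.03). Against the macrophage-gated, 28 lymphocyte-gated and 91 remaining cells the log2 ratio of Birc5 was 1.00, 1.01 and 0.76 and that of Mki67 −1.13, −1.20 and −0.72. Both genes belong to the sum that chose all these cells, so their values are a description. In the same order of cells, the summed replication genes had log2 ratios of −0.08, −0.91 and −0.03. The summed mitosis genes had −0.11, −0.28 and −0.22.

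More genes were past 2-fold in this comparison. Of the 10064, 1362 were 2-fold or more higher (13.5%) and 1308 lower (13%) in cycling carcinoma cells. Among the highest were Cnih2, Ccbe1, Lrrc73, Arsj, Mmp10, Dlx5, Gm6634, Mmp16 and Fbln7, all few in UMIs. Gm26717 had no UMI in the other cells and was at least 7.99-fold higher by a floor of 3 counts over that group, which gives it no rank. Genes such as Gm26717, Cnih2, Mmp10 and Dlx5 passed the filter only through the carcinoma cells, so they had to differ. Mmp10, stromelysin 2, stood at 7.56 against 0.41 CPM and Dlx5, a homeobox gene, at 7.38 against 0.41 CPM. The lowest were Cysltr1, Ly86, Ccl2, Fam111a, Ch25h, Syce2, Bcl2a1d, A630001G21Rik, Pou2f2 and Dpys, and Ccl2, a monocyte chemokine, stood at 14.0 against 729 CPM.

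MHC class I and interferon lists had larger median differences here than between the carcinoma groups, and the serine list a similar one against the median of all genes. Of 12 serine and one-carbon genes 6 were 2-fold or more higher, and Phgdh stood at 403 against 72.9 CPM (log2 2.46). Their median was 0.84 where all genes had 0.16, and 0.69 where all genes had 0.02 between the carcinoma groups. The excess of Phgdh was 3.88 on the log2 scale against macrophage-gated cells and 0.83 against lymphocyte-gated cells. Of 10 MHC class I genes 5 were 2-fold or more lower (median −0.95), and B2m stood at 1376 against 3342 CPM. Of 9 interferon response genes 5 were lower (median −1.51), while the summed list had a log2 ratio of −0.88. Summed, the interferon list gave −0.87 against macrophage-gated, −0.26 against 28 lymphocyte-gated and −0.99 against the remaining cells. In the same order the MHC class I list gave −1.10, −1.26 and −0.94, and the serine list 1.47, 0.35 and 0.81. All genes past the filter had medians of 0.26, 0.34 and −0.02 there. Cdkn1a stood at 76.2 against 371 CPM (log2 −2.28), while Ccnd1 stood at 758 against 246 CPM. The part of the mixture of cell types in the other group was not tested beyond these splits.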

How the data were processed

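Whole lungs of 2 mice, 1 for each burden, were dissociated and sequenced by droplet single-cell RNA sequencing. The authors aligned the reads with Cell Ranger 2.0.2 to mm10 with the PYMT sequence added, and the deposited values are raw UMI counts per gene and cell for 27999 genes, with no normalization. The submitters' notes also name Seurat, and whether the deposited counts precede the aggregation of libraries named in the methods is not given in the sources used here. No cell annotation was used, so cell groups were rebuilt from the counts, and a difference from the study may come from this.

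Groups followed the sample titles. Members, gene lists and the rule for named genes were chosen with earlier results of these data known. The named genes were those of the rule, the 10 highest and 10 lowest ratios of each comparison, the genes with the most UMIs, and the top, highest and lowest member of each list with up to 5 by role. UMIs were summed over the cells of a group and scaled to counts per 1e+06 UMIs (CPM), so deeper cells weigh more. Ratios have exact conditional binomial intervals, shares exact Clopper-Pearson intervals (95%), and medians order-statistic intervals. With 1 mouse per group no test was made. The filter kept genes with at least 50 UMIs over both groups and detection in 10% of cells of either. Lymphocyte-gated cells had 3 or more UMIs per 10000 of Cd3d, Cd3e, Cd3g, Cd79a and Cd79b, with C1q and endothelial sums under the limits of the rule. They served as a rough measure of free RNA and were not shown to be pure. Doublets were kept, as Scrublet marked 8 cells of the high burden library (0.264%), too few for the caller to have worked. Promoter windows and starts are from RefSeq. Python 3.11.15, numpy 2.4.6, scipy 1.17.1, pandas 2.3.3, scanpy 1.11.5 and matplotlib 3.10.9 were used, and the ratios and intervals were tested on simulated data.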

Additional observations from a re-analysis of the deposited data

How the results depend on the processing

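No paired analysis was possible because each group holds 1 library and no result comes from a test. No log2 ratio among the summary results changed sign under any alternative, but those of a few genes past 2-fold did. Of the 422 higher genes, 4 fell under 0 with a cycle sum of 10 and 1 with thinning. Of the 194 lower genes, 3 rose over 0 with thinning and 1 in cells of 15000 to 25000 UMIs. The cycling cells were over 50% of carcinoma cells at the limits of the rule and under it in 3 settings below, and without the filter more genes were lower than higher. With a cycle sum of 10, there were 567 cycling cells, 40.3% of carcinoma cells, with a depth ratio of 1.61, log2 ratios of 0.88 for replication genes, 2.21 for mitosis genes and −0.36 for the carcinoma genes of the rule, and 6.70% of cells leaning to S phase. With a carcinoma sum of 12 these were 453 cells, 48.8%, 1.41, 1.21, 2.17 and −0.18. Thinning each cell to 5000 UMIs before the rule gave 728 cells (639 of the 790 among them), 207 genes higher and 58 lower of 5417 past the filter, and log2 ratios of 1.14, 2.07 and −0.23. With each cell weighted equally the 3 ratios were 1.28, 2.24 and −0.28. Without the filter 854 genes were higher and 1183 lower of 15518. In cells of 15000 to 25000 UMIs, chosen after seeing the data, the cycling share was 46.5%, 92 genes were lower (64 of the 194 among them), the ratios were 1.27, 2.00 and −0.17, and 16.7% leaned to S phase. Fewer or more genes entered the thinned and unfiltered counts, and otherwise the cause was not tested. The other 33 values, with Scrublet's cells removed, no upper limit on genes or median-of-ratios scaling among them, stayed within the counting interval or 1.5 times the count. These 3 settings could move little. Scrublet's removal took 2 cycling carcinoma cells, lifting the gene limit added 4, and the scaling shifted log2 ratios by 0.016. Of values for single named genes 55 stayed within it and 49 moved, none with a change of sign. Hmmr ran from 3.36 to 4.56 and Trf from −2.97 to −1.85.

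All cycling carcinoma cells came from 1 mouse, so no value here has a biological error. Depth differed 1.49-fold between the carcinoma groups, and UMIs of secreted genes were also found in lymphocyte-gated cells.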

Other observations

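The low burden library held 20 kept cells that reached the carcinoma sum of 6 per 10000 UMIs, of 2431 to 9842 UMIs each. They did so through Cdkn2a, of which they held 77 UMIs in all and 2 to 7 per cell, while Twist1 had 1 UMI and Sox9, Hmga2 and Fosl1 had none. Of these cells, 18 were at or over the endothelial limit, and the highest cycle sum among them was 2.01. The 2 cells past all carcinoma limits were therefore not counted as cycling. Apart from these, 47 kept cells of the low burden library reached the cycle sum of 5.

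A further 40 cells of the high burden library met the sums of the rule but were lost to the limits on cells, 36 through mitochondrial UMIs over 10% and 4 through more than 7000 genes. Among the cycling carcinoma cells, Csf3 was found in 141 of 790, and 1 cell held 19.7% of its UMIs. Mmp10 was found in 87, with 38.7% of its UMIs in 10 cells.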
